A study of Mus musculus with 8 samples.

Results

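Zbtb18, Bhlhe22, Satb1, Foxp1 and Lmo1 are transcriptional regulators of the developing cortex that were chosen because their FPKM (sequenced fragments scaled to transcript length and to library depth) was lower in Rem2 KO than in Control neurons. They are 5 of the 23830 genes in the table, and all 5 were among the 13089 genes with at least 1 FPKM in at least 2 libraries. The study sequenced RNA of mouse cortical neurons in culture, as 8 libraries with 2 biological replicates in each of 4 groups. The groups were Control (silenced, no KCl), Control with KCl, Rem2 KO (silenced, no KCl) and Rem2 KO with KCl. The neurons came from cortex at embryonic day 16.5 and were cultured for 6 days. All 8 cultures, controls included, received 1 µM tetrodotoxin, a sodium channel blocker, overnight from day 5, and the KCl groups were then depolarised with 55 mM KCl for 4 h. Every library is labelled Rem2 flx/flx, so only the titles separate Control from Rem2 KO, and neither the source of Cre nor the exons removed is given in the sources used here. Nothing in the labels says whether the replicates came from separate animals or separate cultures.

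Rem2 encodes an RGK-family GTPase, a group known to inhibit voltage-gated calcium channels. As a check of the labels, Rem2 stood at 6.29 and 2.54 FPKM in Control and at 2.13 and 1.70 FPKM in Rem2 KO. After KCl it stood at 22.5 and 21.4 FPKM in Control and at 11.7 and 12.4 FPKM in Rem2 KO, so Rem2 KO was the lower library in each of the 4 pairs that share a replicate number and a KCl state. Depth read from the low values was roughly 18.1 to 20 M fragments for replicates numbered 1 and 34.9 to 43 M for those numbered 2. Replicates of 1 group correlated at 0.912 to 0.929 across genes, below the 0.979 to 0.982 between libraries that shared a number and a KCl state but not the genotype. Differences between same-numbered libraries are therefore given beside the group values.

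Transcription factors of this kind set the identity, migration and wiring of cortical neurons, and many of them work as repressors that keep alternative programmes silent. Zbtb18, also called RP58, is a BTB zinc finger repressor that newborn glutamatergic neurons need to migrate and mature. Bhlhe22, or Bhlhb5, is a basic helix-loop-helix repressor that acts with Prdm8 and takes part in cortical area identity. Satb1 is a chromatin organiser that somatostatin interneurons need to mature, Foxp1 is a forkhead repressor of projection neurons in several cortical layers, and Lmo1 is a LIM-only protein that binds Ldb1 and no DNA of its own.

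In mm10, Zbtb18 lies on chromosome 1 (177442351 to 177450764), Bhlhe22 on chromosome 3 (18054325 to 18057514) and Satb1 on chromosome 17 (51736187 to 51833290). Foxp1 lies on chromosome 6 (98925342 to 99522746) and Lmo1 on chromosome 7 (109138565 to 109175207). The 5 genes are thus on 5 different chromosomes, and none is on chromosome 14, which carries Rem2.

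Because these genes were picked as a group with lower FPKM in Rem2 KO, RefSeq upstream windows of 250 bases (GRCm38.p6) are shown. A gene was included where the near end of a window lay within 50 bases of the annotated start of a measured transcript. This held for Foxp1, Lmo1 and Satb1, and 1 window of each is printed 5′ to 3′ on the strand of the gene. Capitals mark the motifs searched on both strands. The cAMP response element was searched as TGACGTCA. Its core, which lies within it, was searched as TGACG. The AP-1 site was searched as TGANTCA, and the E-box that basic helix-loop-helix proteins bind as CANNTG.
Foxp1, transcript NM_001197322, minus strand, chr6:99028299-99028548: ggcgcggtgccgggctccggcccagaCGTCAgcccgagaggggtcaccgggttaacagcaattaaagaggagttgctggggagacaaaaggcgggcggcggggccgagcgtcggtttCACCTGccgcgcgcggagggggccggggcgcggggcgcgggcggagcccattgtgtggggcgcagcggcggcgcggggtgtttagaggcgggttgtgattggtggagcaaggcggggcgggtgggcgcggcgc
Lmo1, transcript NM_001302205, minus strand, chr7:109175208-109175457: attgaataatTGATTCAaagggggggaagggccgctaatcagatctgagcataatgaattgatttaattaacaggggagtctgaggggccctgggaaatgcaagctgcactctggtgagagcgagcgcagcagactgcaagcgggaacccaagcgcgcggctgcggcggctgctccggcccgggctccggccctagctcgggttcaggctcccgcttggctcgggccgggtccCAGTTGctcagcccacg
Satb1, transcript NM_009122, minus strand, chr17:51832648-51832897: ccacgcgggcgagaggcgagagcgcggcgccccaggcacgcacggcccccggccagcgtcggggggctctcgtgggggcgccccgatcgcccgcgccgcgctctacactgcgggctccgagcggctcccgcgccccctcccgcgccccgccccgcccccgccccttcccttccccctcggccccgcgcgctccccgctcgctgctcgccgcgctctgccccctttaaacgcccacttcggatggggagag
The Foxp1 window held 1 core TGACG and 1 E-box, the Lmo1 window 1 AP-1 site and 1 E-box, and the Satb1 window none of the 4 motifs. Of 32851 windows of the same length, 17.8% held the core, 6.75% the AP-1 site, 66.2% an E-box and 1.55% the full element. No motif was shared by all 3 windows. The Lmo1 window lies directly before its upstream start. The Foxp1 window ends 40 bases before the annotated start. The last 25 bases of the Satb1 NM_009122 window lie inside the annotated transcript. GC content was 74.0% in the Foxp1 window, 61.2% in that of Lmo1 and 80.8% in that of Satb1 NM_009122. It was 58.0% in the window before another Satb1 transcript, NM_001163632, against a median of 52.4% over all windows.

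Zbtb18 had the highest mean FPKM of the 5, above that of 96.7% of the genes tested, and its Rem2 KO libraries lay lowest after KCl. In bulk RNA, fewer cells of a type and less RNA per cell cannot be told apart, for this and each later value. In silenced neurons it stood at 186 and 221 FPKM in Control and at 162 and 155 FPKM in Rem2 KO. After KCl it stood at 179 and 181 FPKM in Control and at 109 and 104 FPKM in Rem2 KO. All 4 Rem2 KO libraries lay below all 4 Control libraries. The Control mean was 1.29 times the Rem2 KO mean without KCl and 1.70 times with it. The difference between same-numbered libraries was -13.1% and -29.9% without KCl and -39.3% and -42.9% with it.

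Bhlhe22 overlapped between the genotypes before depolarisation and lay apart after it. It stood at 90.0 and 77.0 FPKM in Control and at 84.9 and 67.3 FPKM in Rem2 KO, and the difference of -0.14 on the log2(FPKM + 1) scale (SE 0.19) ran from -0.30 without Rem2 KO replicate 1 to 0.03 without Rem2 KO replicate 2. With KCl it stood at 56.3 and 48.5 FPKM in Control and at 34.9 and 26.4 FPKM in Rem2 KO, and these groups did not overlap. Control was 1.10 times Rem2 KO in silenced neurons and 1.71 times in depolarised ones. Replicate 2 was the lower library in every group, with a difference from replicate 1 of -24.3% to -13.8%. The paired genotype differences were -5.65% and -12.5% without KCl and -38.0% and -45.6% with it.

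Satb1 differed by a like amount in both activity states. It stood at 26.2 and 31.0 FPKM in Control and at 18.8 and 22.4 FPKM in Rem2 KO, and with KCl at 27.6 and 35.0 FPKM in Control and at 18.9 and 23.9 FPKM in Rem2 KO. Every Rem2 KO library lay below every Control library. Rem2 KO minus Control was -28.5% and -27.6% in the silenced pairs and -31.5% and -31.7% in the KCl pairs.

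Foxp1, at the middle of the abundance range (52.8% of genes tested had a lower mean), had the smallest averaged difference of the 5. It stood at 17.2 and 15.7 FPKM in Control and at 12.2 and 11.3 FPKM in Rem2 KO. After KCl it stood at 15.1 and 14.1 FPKM in Control and at 11.4 and 10.7 FPKM in Rem2 KO. The Control and Rem2 KO libraries did not overlap. Its paired differences were nearly equal within each activity state, at -29.1% and -27.5% without KCl and -24.3% in both pairs with it.

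Lmo1 lay higher in Control than in Rem2 KO, and by more after depolarisation. In silenced neurons it stood at 61.9 and 56.0 FPKM in Control and at 47.4 and 49.4 FPKM in Rem2 KO. After KCl it stood at 69.4 and 88.2 FPKM in Control and at 42.4 and 44.5 FPKM in Rem2 KO. All 4 Rem2 KO libraries lay below all 4 Control libraries, with a Control mean 1.22 times that of Rem2 KO without KCl and 1.81 times with it. The paired differences were -23.4% and -11.8% without KCl and -38.9% and -49.5% with it.

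**Figure D1:**
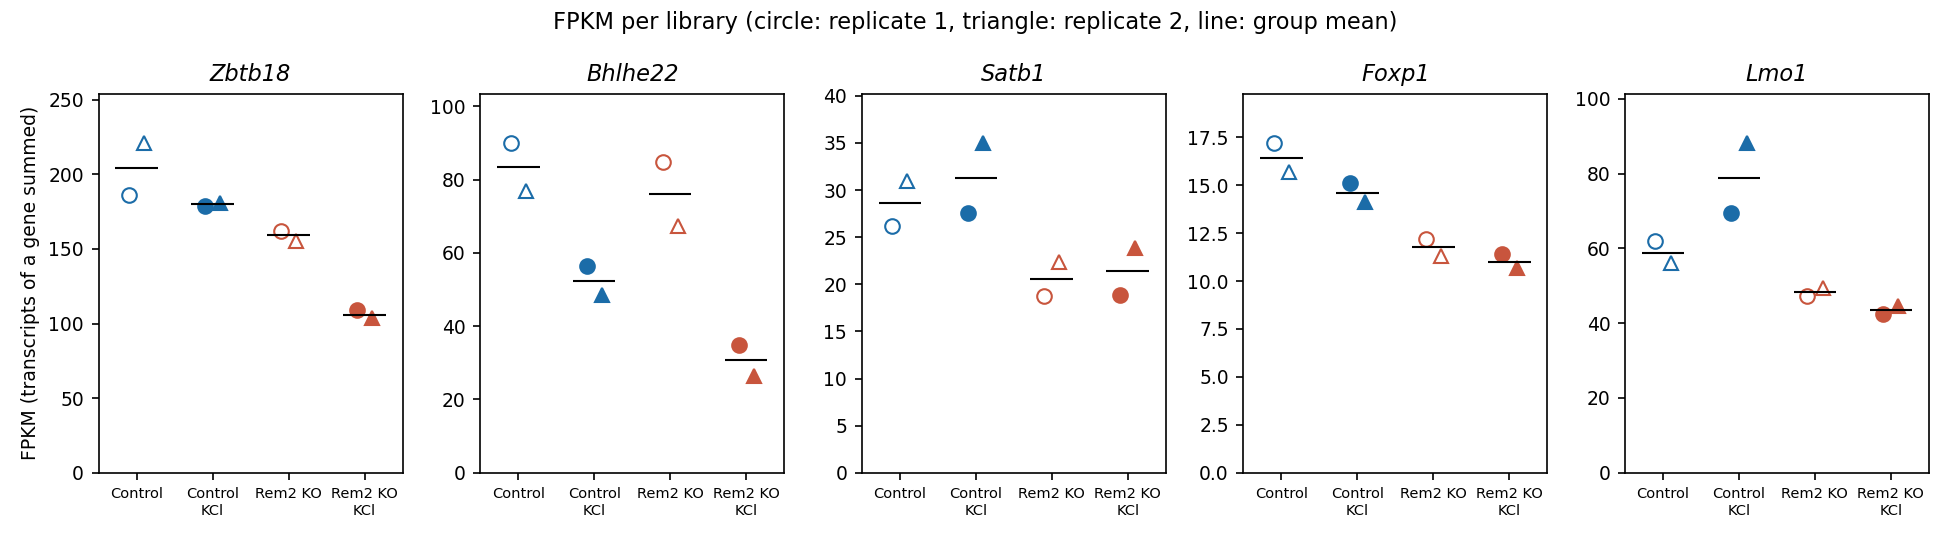
FPKM of the 5 genes in each of the 8 libraries (circles, replicate 1; triangles, replicate 2; filled, with KCl; lines, group means), with a vertical axis in FPKM that starts at 0. The Rem2 KO libraries lie below the Control libraries for Zbtb18, Satb1, Foxp1 and Lmo1, and for Bhlhe22 the silenced groups overlap.

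These genotype differences are what the genes were chosen by, so they describe the choice and carry no test. Averaged over both KCl states, the difference Rem2 KO minus Control on the log2(FPKM + 1) scale was -0.56 (SE 0.08) for Zbtb18 and -0.56 (SE 0.09) for Lmo1. It was -0.49 (SE 0.13) for Satb1, -0.45 (SE 0.13) for Bhlhe22 and -0.41 (SE 0.07) for Foxp1. From 0.665% to 1.23% of the genes tested had a lower averaged difference than each of these. Among all genes tested, 0.695% had all 4 Rem2 KO libraries below all 4 Control libraries, as 4 of the 5 did, and 11.3% were lower in Rem2 KO in all 4 same-numbered pairs, as all 5 were. With KCl, both Rem2 KO libraries lay below both Control libraries for all 5 (8.31% of all genes), and in both activity states they did so for 4 of the 5 (3.38% of all genes).

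By value, the genotype difference changed more with KCl for Zbtb18, Bhlhe22 and Lmo1 than for Satb1 and Foxp1. For Zbtb18, Bhlhe22 and Lmo1 the difference on the log2(FPKM + 1) scale went from -0.35, -0.14 and -0.28 without KCl to -0.76, -0.76 and -0.83 with it. Without Control with KCl replicate 2, these last values were -0.75, -0.87 and -0.66. For Satb1 it was -0.46 and -0.53 (SE 0.18 each), and for Foxp1 -0.45 and -0.37 (SE 0.11 each). The change in the genotype difference with KCl was -0.40 (SE 0.16) for Zbtb18, -0.63 (SE 0.27) for Bhlhe22 and -0.56 (SE 0.19) for Lmo1, against -0.07 (SE 0.26) for Satb1 and 0.08 (SE 0.15) for Foxp1. The choice of the genes favoured low Rem2 KO values in these same libraries, so these changes were not tested. Whether they differ between the genes was not tested either.

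**Figure D2:**
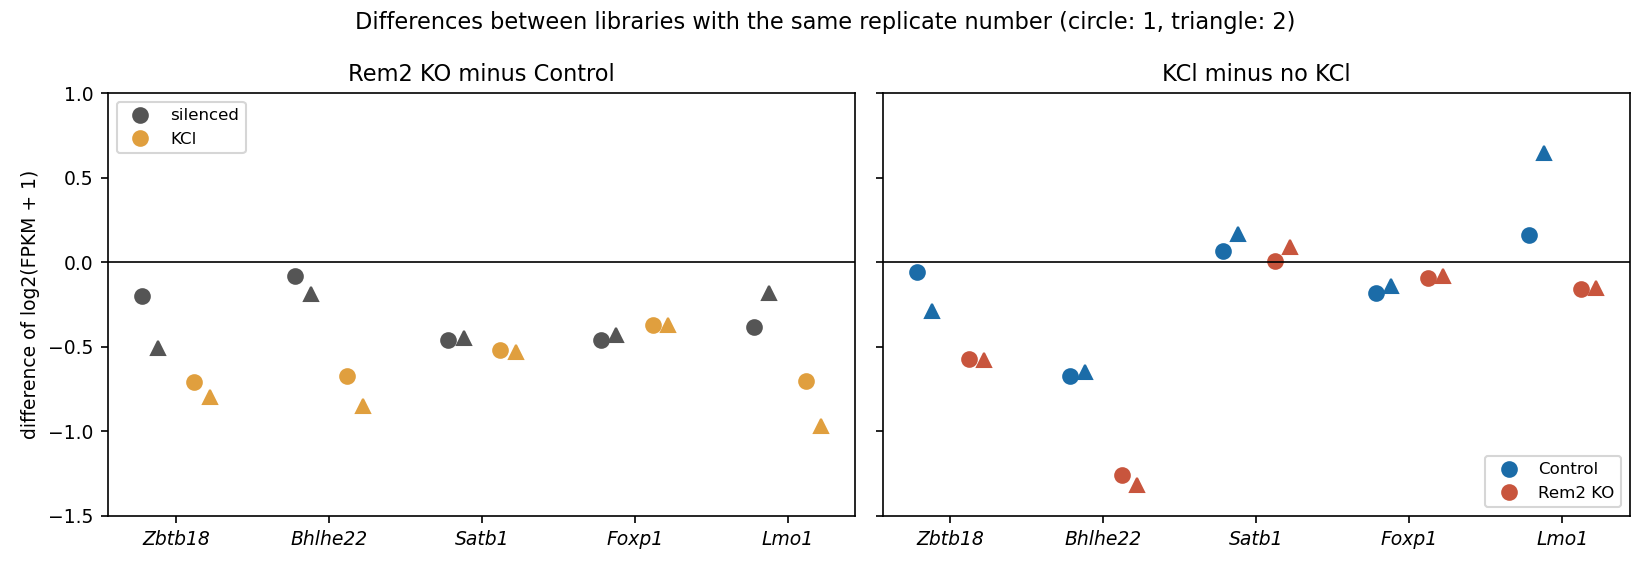
Differences of log2(FPKM + 1) between libraries that share a replicate number, for Rem2 KO minus Control in each KCl state (left) and KCl minus no KCl in each genotype (right); circles are replicate 1 and triangles replicate 2. On the left all 20 points lie below 0, and those of Zbtb18, Bhlhe22 and Lmo1 lie lower with KCl; on the right Lmo1 lies above 0 in Control and below 0 in Rem2 KO.

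Of the 5 genes, 2 passed the KCl test as lower with KCl, and the call of Zbtb18 depended on the scaling and on single libraries. The KCl effect averaged over both genotypes is independent of the genotype difference that chose the genes, and it was tested across all 13089 genes with limma, where 33.4% passed an adjusted p of 0.05 (22.9% lower and 10.5% higher with KCl). Bhlhe22 fell by 0.97 on the log2(FPKM + 1) scale (SE 0.13, limma adjusted p = 0.00365), and its 4 KCl libraries all lay below its 4 libraries without KCl, as for 27.9% of all genes. Zbtb18 fell by 0.37 (SE 0.08, limma adjusted p = 0.0180) and was lower with KCl in all 4 same-numbered pairs. The median gene changed by -0.13, so the fall of Zbtb18 relative to it was smaller. With TMM-type scaling, under which the median gene lay at -0.01, Zbtb18 was at -0.23 and no longer passed (limma adjusted p = 0.135), and the split of calls moved from 31.4% to 45.9% higher. Its call was also lost without Control replicate 2 (-0.31), Control with KCl replicate 1 (-0.37) or 2 (-0.38), and Rem2 KO with KCl replicate 1 (-0.39) or 2 (-0.36), with limma adjusted p from 0.0513 to 0.0680.

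Satb1, Foxp1 and Lmo1 did not pass the KCl test, so 2 of 5 genes passed where 33.4% of all genes did. The averaged KCl difference was 0.08 (SE 0.13, limma adjusted p = 0.694) for Satb1 and -0.12 (SE 0.07, limma adjusted p = 0.264) for Foxp1, close to the median gene. It was 0.13 (SE 0.09, limma adjusted p = 0.367) for Lmo1. With TMM-type scaling Satb1 was at 0.22 (limma adjusted p = 0.0758) and Lmo1 at 0.27 (limma adjusted p = 0.0692), and without Control with KCl replicate 2 Lmo1 was at 0.04. The replicate number fitted as a block left these 3 without a call, with limma adjusted p of 0.161, 0.0592 and 0.205, so 2 of the 5 again passed where 62.0% of all genes did.

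Within each genotype the KCl responses share libraries with the choice of the genes and are given as values. For Bhlhe22 KCl minus no KCl was -37.4% and -37.0% in the Control pairs and -58.9% and -60.8% in the Rem2 KO pairs. For Zbtb18 it was -3.90% and -18.1% in Control and -32.9% and -33.3% in Rem2 KO. Both genes thus lay lower with KCl in each genotype with no overlap, as 30.5% of all genes did. In Control the Zbtb18 difference, -0.17 on the log2(FPKM + 1) scale, was near the median gene (-0.14), and with TMM-type scaling it was -0.01. Lmo1 was higher with KCl in Control, by 12.2% and 57.4%, and lower in Rem2 KO, with differences of -10.5% and -9.89%. Such opposite movement with no overlap in either genotype was seen in 0.138% of the genes tested. Without rescaling, the Lmo1 difference was 0.40 (SE 0.13) in Control and -0.15 (SE 0.13) in Rem2 KO, where the median gene lay at -0.14 and -0.12, and after TMM-type scaling 0.57 and -0.03.

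Lmo1 and Satb1 have several RefSeq transcripts with separate starts, and the FPKM of these moved differently, a feature looked at after the values were seen. The Lmo1 transcript that starts at 109175207 stood at 35.6 and 22.1 FPKM in Control and at 15.9 and 14.8 FPKM in Control with KCl. In Rem2 KO it stood at 26.0 and 28.4 FPKM, and with KCl at 18.2 and 11.8 FPKM. It was thus lower with KCl in both genotypes, and with KCl the genotypes overlapped. Both transcripts that start near 109170512 summed to 26.2 and 33.9 FPKM in Control and to 53.6 and 73.3 FPKM with KCl. In Rem2 KO they summed to 21.4 and 21.0 FPKM, and with KCl to 24.2 and 32.6 FPKM. By these values, the genotype gap of Lmo1 with KCl lay in the transcripts from the downstream start, whose mean was 63.4 FPKM in Control and 28.4 FPKM in Rem2 KO. The split between transcripts is an estimate and was not tested.

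The Satb1 transcript NM_009122, from the start near 51832672, stood at 3.54 and 9.83 FPKM in Control and at 9.16 and 18.6 FPKM in Control with KCl. It stood at 3.82 and 7.62 FPKM in Rem2 KO and at 3.78 and 10.5 FPKM in Rem2 KO with KCl. NM_001163630, which starts at 51815004, held the larger part in 7 of 8 libraries, at 19.1 and 21.2 FPKM in Control, 14.6 and 16.5 FPKM in Control with KCl, 14.9 and 12.4 FPKM in Rem2 KO and, with KCl, 15.1 and 13.4 FPKM in Rem2 KO. With KCl the genotypes overlapped for NM_001163630 and for NM_009122, and the sum of all transcripts separated them. Between same-numbered libraries with KCl, NM_009122 was lower in Rem2 KO for replicate 1 and for replicate 2, and NM_001163630 for replicate 2 only. Both measured Foxp1 transcripts were lower in Rem2 KO in each activity state without overlap: without KCl the shorter NM_001197322 stood at 13.2 and 10.9 FPKM in Control and at 8.51 and 7.49 FPKM in Rem2 KO, and NM_053202 had means of 4.36 and 3.78 FPKM. The software divides fragments from shared exons between transcripts by estimate, and 1 Lmo1 transcript was listed at 0 in 1 library and the Satb1 transcript NM_001163632 in 5, so transcript values are less certain than their sums. Bhlhe22 and Zbtb18 each had all of their FPKM in 1 transcript.

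**Figure D3:**
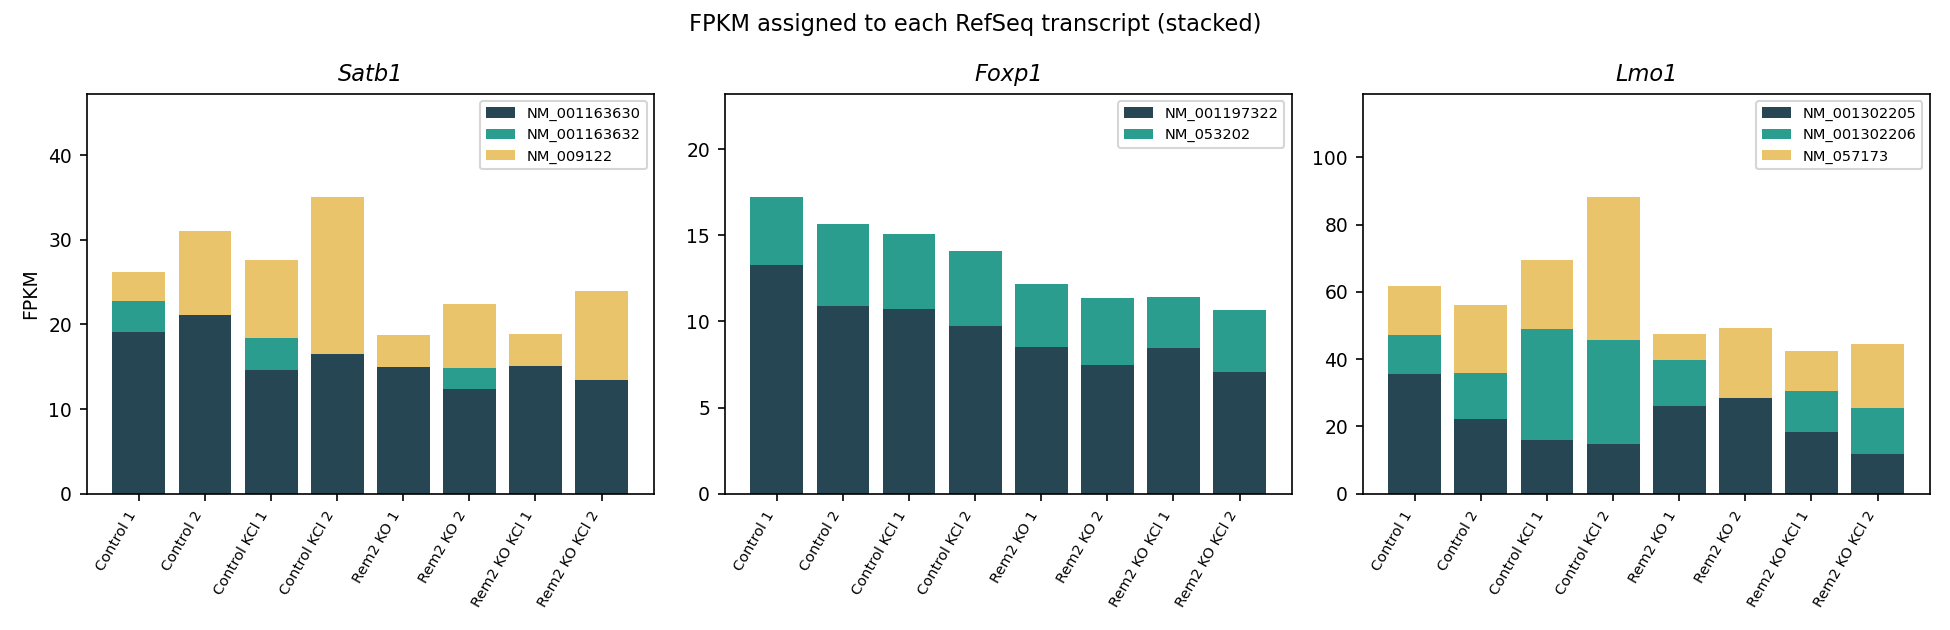
FPKM of each measured RefSeq transcript of Satb1, Foxp1 and Lmo1, stacked so that the bar height is the gene's FPKM, in each library (vertical axes start at 0). For Lmo1 the dark segment (NM_001302205, upstream start) is smaller with KCl in both genotypes, while the segments above it together are tallest in Control with KCl.

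Relatives of the 5 genes had averaged genotype differences of -0.32 to 0.22 on the log2(FPKM + 1) scale. Of 15 relatives listed by family, 11 reached the expression minimum. In the genotype test 1 of 13089 genes passed (0.00764%), and it was none of the 11 relatives. The 5 genes were chosen by their genotype differences, so no outcome of this test is given for them. None of the 11 had an unadjusted p under 0.05 in limma, and 4 did with the block, as did 1475 of all 13089 genes. Foxp2, a forkhead relative of Foxp1, had a difference of -0.18, and Foxp4 one of 0.12. Lmo2 had a difference of 0.11, Lmo3 of -0.18 and Lmo4 of -0.20. With KCl, Lmo2 rose from means of 3.21 to 7.87 FPKM in Control and of 3.57 to 8.54 FPKM in Rem2 KO (1.06, limma adjusted p = 0.00144). In all, 2 of the 11 relatives passed for KCl, both higher, where 10.5% of all genes passed as higher and 22.9% as lower.

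Partners and reported targets gave no genotype call either. Of 9 partners, Prdm8, the co-repressor that Bhlhe22 recruits, rose with KCl from means of 33.1 to 49.7 FPKM in Control and of 28.5 to 49.4 FPKM in Rem2 KO (0.68, limma adjusted p = 0.00891), while Bhlhe22 fell. Lhx2, a LIM homeodomain factor, also rose (0.50, limma adjusted p = 0.0103), and the other 7 did not pass. Ldb1, the LIM-domain binding protein that LIM-only proteins contact, had genotype and KCl differences of 0.11 and -0.07, and Ldb2 of -0.34 and -0.56, none of which passed. Reported in mouse as repressed by Zbtb18 or by Bhlhe22 with Prdm8 are 7 listed genes (Id1, Id2, Id3, Id4, Neurog2, Neurod1 and Cdh11). None of the 7 passed for genotype and none had an unadjusted p under 0.05 in limma. With the block 4 did, as did 1475 of all 13089 genes. Their genotype differences ran from -0.26, for Neurod1 and Cdh11, to 0.38, for Id1, with a median of 0.07 where the median of all genes was 0.00. With KCl Neurog2, a proneural factor, rose (0.82, limma adjusted p = 0.00742) and Id2, an inhibitor of basic helix-loop-helix proteins, fell (-0.70, limma adjusted p = 0.0126).

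Other cortical projection neuron transcription factors moved in both directions with KCl. Of 43 listed, 42 were tested, and 15 rose and 4 fell with KCl, where 10.5% of all genes rose and 22.9% fell, while 23 did not pass. The list median was 0.12 where that of all genes was -0.13. The rises with the smallest p were Nr4a2, an orphan nuclear receptor (2.41, limma adjusted p = 0.000237), the POU factors Pou3f3 (0.88) and Pou3f1 (1.71), the nuclear receptor Nr2f1 (1.18), the zinc finger protein Hivep2 (1.13) and Fezf2, the determinant of subcerebral projection neurons (1.75). The 4 that fell were Id2, Myt1l (-0.72), Zfpm2 (-0.46) and Bcl11a (-0.36). None of the 42 passed for genotype, 1 had an unadjusted p under 0.05 (17 with the block, against 1475 of all 13089 genes), and the median difference was -0.06. The 1 without the block was Tshz2, a zinc finger homeobox gene, which was higher in Rem2 KO at 2.68 and 2.82 FPKM than in Control at 1.71 and 1.53 FPKM (0.43 over both KCl states, SE 0.10, limma adjusted p = 1.00). Mef2c, an activity-responsive factor of cortical neurons, had the lowest difference of the list (-0.37). In all 4 same-numbered pairs 14 of the 42 were lower in Rem2 KO, against 11.3% of all genes. With the block, 20 rose and 8 fell with KCl, where 2638 and 5476 of all 13089 genes did, and none passed for genotype.

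**Figure D4:**
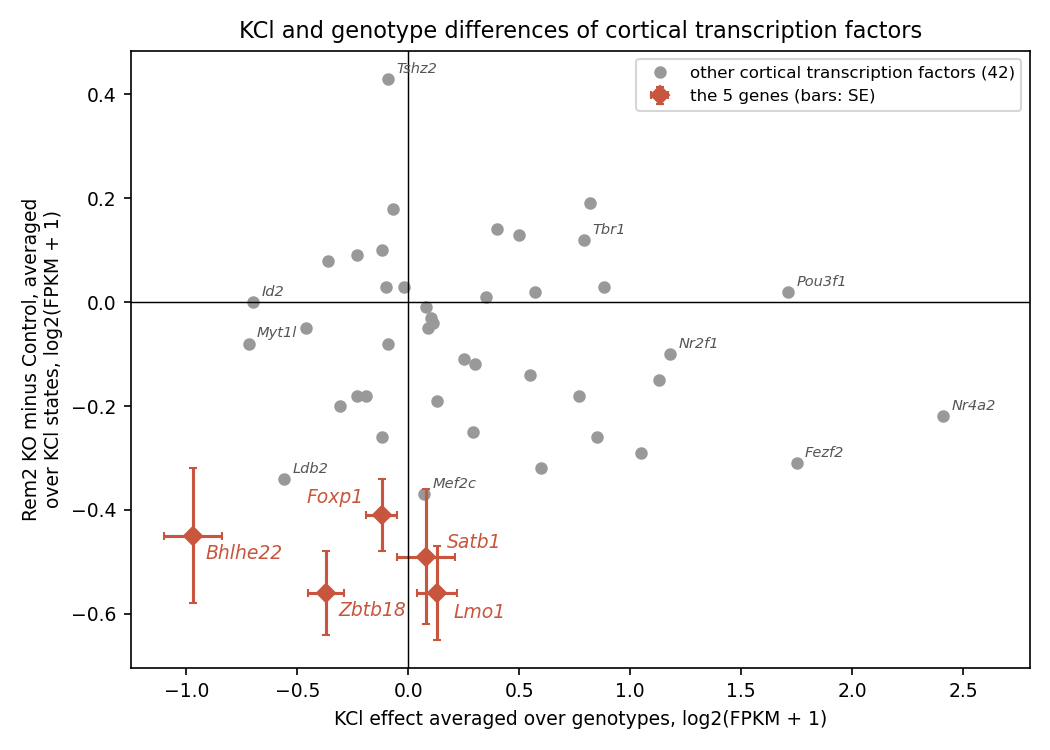
Log2(FPKM + 1) differences of the 5 genes (diamonds, bars are SE) and of 42 other cortical transcription factors (grey points, some labelled): KCl effect averaged over genotypes on the horizontal axis, Rem2 KO minus Control averaged over KCl states on the vertical axis. The 5 genes were chosen for low values on the vertical axis and lie between -0.41 and -0.56 there; on the horizontal axis Bhlhe22 at -0.97 lies left of all the others.

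Interneuron transcription factors were examined because Satb1 is also an interneuron gene. Of 18 listed, 15 were tested and none passed for genotype, with a median difference of 0.07. None had an unadjusted p under 0.05 in limma, and 7 did with the block, as did 1475 of all 13089 genes. In all 4 pairs 1 was lower in Rem2 KO, against 11.3% of all genes. Sp8, a zinc finger factor of interneurons, had a genotype difference of 0.31 (limma adjusted p = 1.00). With KCl 5 rose, among them Sp8 (0.62), Maf (0.82), Sp9 (0.32) and Nr2f2 (0.35), and 1 fell, where 10.5% of all genes rose and 22.9% fell.

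Markers of the cell types that the cultures could hold were summed per library. Neuronal markers were present in every library, and so were glial ones. The 10 excitatory neuron markers, of which 6 are also in the list of cortical factors, summed to 404 and 471 FPKM in Control and to 389 and 405 FPKM in Rem2 KO. With KCl they summed to 688 and 752 FPKM in Control and to 699 and 595 FPKM in Rem2 KO, lower in Rem2 KO in 3 of 4 pairs. Neurod6, at 160 to 430 FPKM, made up the largest share of each sum, and the median genotype difference of the 10 was -0.03, with Neurod6 at -0.26, Slc17a6 at 0.39 and Camk2a at 0.23. The sum of 15 interneuron markers was lower in Rem2 KO in 2 of 4 pairs and ran from 583 to 726 FPKM without KCl and from 1565 to 1986 FPKM with it. The sum of 12 measured markers of astrocytes and radial glia came to 1782 and 2288 FPKM in Control and to 1892 and 2725 FPKM in Rem2 KO. After KCl it came to 1642 and 2516 FPKM in Control and to 2004 and 2788 FPKM in Rem2 KO, higher in Rem2 KO in each of the 4 pairs. Proliferation markers, at 248 to 373 FPKM, were also higher in Rem2 KO in each of the 4 pairs, and oligodendrocyte lineage markers summed to 301 to 482 FPKM. No marker of the 8 lists passed for genotype in limma, and with the block 1 meningeal fibroblast marker did. Microglial markers summed to 9.69 and 26.7 FPKM in Control and to 8.75 and 21.6 FPKM in Rem2 KO. With KCl they summed to 9.89 and 26.7 FPKM in Control and to 9.70 and 18.6 FPKM in Rem2 KO. The microglial sum was thus lower in Rem2 KO in each of the 4 pairs, and all 5 markers tested had negative genotype differences. Endothelial and mural markers summed to 30.5 to 95.0 FPKM and meningeal fibroblast markers to at most 45.8 FPKM. Of these lists, P2ry12, Tmem119, Itgam, Flt1 and Lum stayed under 1 FPKM in every library. The endothelial and mural, fibroblast and oligodendrocyte sums were lower in Rem2 KO in some pairs and higher in others. Pdgfra, at 24.8 to 36.2 FPKM and also in the oligodendrocyte list, made up most of each fibroblast sum. Its genotype difference was 0.20, while 4 of the 6 fibroblast markers tested were below 0. Of 7 endothelial and mural markers tested 6 were below 0 (median -0.05), and Acta2, at 3.67 to 79.0 FPKM, was at 0.31. Of the 8 oligodendrocyte markers 1 was below 0 (median 0.18). The part of these sums in the lower values of the 5 genes was not tested.

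The genes whose profiles over the 8 libraries were most like those of the 5 were found by Pearson's r of log2(FPKM + 1) among 11077 genes with a mean of at least 2 FPKM, as a description with no test, and genotype, KCl and replicate number are shared by all points. For Zbtb18 they were Ccdc85a (r = 0.958), Lancl2 (0.951) and Hip1r (0.950). Ccdc85a stood at 8.96 and 10.9 FPKM in Control, 6.15 and 6.26 in Control with KCl, 5.53 and 5.96 in Rem2 KO and, with KCl, 3.14 and 3.16 FPKM there. For Bhlhe22 they were Epha7, an ephrin receptor (0.968), Gnaq (0.967) and Syt16 (0.967). For Satb1 they were Syt1, the synaptic vesicle calcium sensor (0.984), the glypican Gpc5 (0.979) and Rgs6 (0.970). For Foxp1 they were Nat14 (0.974), Rgmb (0.961) and Tnpo2 (0.961). For Lmo1 they were the melanocortin receptor Mc4r (0.951), Tmem38b (0.923) and Gucy1b1, a soluble guanylate cyclase subunit (0.908).

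With the mean of each replicate number subtracted first, most of these names changed. Syt1 (0.980) remained among the nearest 3 of Satb1, Tnpo2 (0.978) of Foxp1 and Mc4r (0.977) of Lmo1. Gucy1a1 was then nearest to Zbtb18 (0.998), Zmynd19 to Bhlhe22 (0.990), Gucy1b1 to Satb1 (0.991) and Cetn3 to Foxp1 (0.990). After Mc4r, the nearest to Lmo1 were Lyz2 (0.960) and Plek (0.938). Among the 5 genes themselves, r over the 8 libraries without that subtraction was highest between Satb1 and Lmo1 (0.846) and between Zbtb18 and Foxp1 (0.830), and lowest between Bhlhe22 and Satb1 (0.103). With it, r was highest between Satb1 and Lmo1 (0.910) and between Satb1 and Foxp1 (0.882, against 0.633 without), and lowest between Bhlhe22 and Satb1 (0.267). Since all 5 were picked for lower Rem2 KO values, these correlations are descriptions.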

How the data were processed

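Abundance was measured by RNA sequencing (Illumina TruSeq kit, 500 ng total RNA per library, per the labels' protocols). The authors deposited FPKM, 1 value per RefSeq accession and library, per the file headers, from TopHat and Cufflinks on mm10, per the submitters' processing notes (versions not stated). Read counts were not used here, and depths are rough estimates from the worth of 1 fragment in low single-transcript genes. Of 34353 accessions 34015 were matched to RefSeq genes (GRCm38.p6), FPKM were summed per gene, and 302 genes with repeated accessions or missing values, Aqp4 among them, were left out.

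Genes that reached 1 FPKM in at least 2 libraries entered the test on log2(FPKM + 1), which understates changes of low genes, with limma 3.58.1 in R 4.3.3 (variance trend, a mean per group, 4 residual degrees of freedom) and Benjamini-Hochberg adjustment over all 13089 genes, threshold 0.05. The fit was also run on simulated data, and the result of that run is not reported here. With 2 replicates per group, p-values measure the spread between these samples, which may be technical. Libraries that share a number deviated together from the group means, correlating at 0.708 to 0.783 over the 6 pairs of groups, so the number was also fitted as a block. The genes, lists and tests were chosen with earlier results of these data known. Beyond the 5 genes, named genes were those of the relatives, partners and target lists and the 3 nearest profiles per gene. Up to 6 per list and contrast past the threshold were also named by smallest p, or else the 2 smallest p. Mef2c, Pdgfra, Acta2, the 4 falls, the markers under 1 FPKM and the transcripts were named after their values were seen. Alternatives were other pseudocounts, filters and scalings, the block, no variance trend and leaving out each library. Some genes of the lists are counted but not reported by name here.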

Additional observations from a re-analysis of the deposited data

Results flagged for a closer look

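Lmo1 differed with KCl in opposite directions in the 2 genotypes: both Control libraries with KCl lay above both without it, and both Rem2 KO libraries with KCl lay below both without it. The difference of the KCl effects, Rem2 KO minus Control, was -0.56 on the log2(FPKM + 1) scale. The value in Rem2 KO, -0.15 (SE 0.13), was near that of the median gene (-0.12) and was -0.03 with TMM-type scaling, against 0.40 (SE 0.13) and 0.57 in Control. The difference between the genotypes was not tested, because Lmo1 was chosen for low Rem2 KO values in the same libraries.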

How the results depend on the processing

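Bhlhe22 passed the KCl test under every alternative run. The sign of the genotype differences is fixed by the choice of the 5 genes in these libraries. Zbtb18 lost its KCl call after TMM-type scaling (-0.23) and without 5 of the 8 libraries, and left-out values ran from -0.44 to -0.31. Foxp1 for KCl turned to 0.01 after TMM-type scaling and to 0.01 after quantile normalization, scalings under which the median gene lay at -0.01 and -0.03. Satb1 for KCl turned to -1.6e-05 without Control with KCl replicate 2, and left-out values ran from -1.6e-05 to 0.17; Lmo1 left-out values ran from 0.04 to 0.21. TMM-type scaling gave 0.22 for Satb1 and 0.27 for Lmo1, neither past the threshold. The count of genes past the KCl threshold was 4373, and 8114 with the replicate block, where 2638 rose and 5476 fell; leaving out a library gave 2730 to 3830, with fewer samples. The genotype count was 1, against 56 with the block (10 higher and 46 lower), 4 with a pseudocount of 0.1, 2 without a filter, 2 without the variance trend, and 1 to 4 with a library left out; the cause was not tested. The block changed no KCl call of the 5 genes. With 2 replicates and no counts, small differences of lowly expressed transcripts are not detectable here.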
